A study of Rattus norvegicus with 12 samples.

Results

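Transcripts of 6 genes known from the atria, Myl7, Myl4, Sln, Sbk2, Bmp10 and Dkk3, were described in the left ventricle of 12 rats. They were taken by symbol from the 34700 genes of the deposited table, and each symbol matched 1 gene. The genes were selected on their measured CPM levels in these 12 rats, which were already known, so their levels, changes and likeness are given as a description. Where tests across all genes are counted, the calls among the 6 are listed beside the share for all genes, and nothing is read from them. The atria and ventricles of the adult heart are built from related but different contractile proteins. Myl7 and Myl4 are the regulatory and essential myosin light chains of atrial muscle, where Myl2 and Myl3 serve in the ventricle. Atrial myocytes also carry sarcolipin, a small inhibitor of the calcium pump, and secrete natriuretic peptides and BMP10. Atrial light chains can also be present in the embryonic and the diseased ventricle.

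Male Sprague-Dawley rats were operated on at 8 weeks of age, and hearts were collected 12 weeks later. Sham rats had a thread passed around the left anterior descending coronary artery without ligation. HF rats had the artery ligated and stayed sedentary. HFE rats had the ligation and 8 weeks of treadmill running for 60 min on 5 days of each week. BAIBA rats had the ligation and β-aminoisobutyric acid, a metabolite released by working muscle, by oral gavage at 75 mg/kg/day for 8 weeks. The study lists an exercise set and a BAIBA set, each with Sham and HF groups, and those of the BAIBA set had water by gavage. Which set the sequenced Sham and HF rats belonged to is not given in the sources used here. Each group held 3 rats, and poly(A) RNA of each rat was sequenced as a paired-end library. The study describes the site of the tissue in more than one way. Its methods place the tissue in the anterior ventricular wall and single out the BAIBA group as taken from around the infarct, while its results have HF tissue from around the infarct too. By the former, treatment and site cannot be told apart in comparisons with the BAIBA group, and by the latter, infarct and site cannot be told apart in comparisons of HF or BAIBA with Sham. The results name no site for the sequenced HFE tissue, so by the latter exercise and site may also be inseparable in HFE against HF. The comparison of HF with Sham addresses the effect of the infarct, those of HFE and BAIBA with HF address the treatments, and that of BAIBA with Sham shows how far the treated hearts lay from hearts without infarct. How atrial tissue was kept out of the samples is not given in the sources used here. CPM denotes counts scaled to library size with TMM factors.

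Total counts on genes lay between 14812541 and 19732588 per rat. The ventricular genes were present in every rat, with Myl2 between 1834 and 2808 CPM, so the label of ventricular tissue was met in each library. Several libraries stood apart in markers of other cells. Msln, a mesothelial marker, reached 36.1 CPM in BAIBA rat 1, 10.3 CPM in BAIBA rat 3 and 5.33 CPM in HF rat 1, against at most 2.50 CPM in the other rats. The leukocyte gene Ptprc was also highest in HF rat 1, at 104 CPM. The fold changes of Myl7, Myl4 and Sln are also given below without each of these libraries.

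Myl7 varied widely among the 12 rats. It reached 27.3, 11.3 and 40.6 CPM in Sham rats 1, 2 and 3 (26.4 ± 14.6, mean ± SD, n = 3). In the HF rats it was 0.745, 2.33 and 19.7 CPM (7.59 ± 10.5, n = 3). In the HFE rats it was 32.4, 1.18 and 0.443 CPM (11.3 ± 18.3, n = 3), and in the BAIBA rats 0.669, 0.385 and 0.302 CPM (0.452 ± 0.193, n = 3). All 3 Sham rats, HF rat 3 and HFE rat 1 stood above 5 CPM, the other HF and HFE rats and the 3 BAIBA rats stood below it, and the BAIBA rats did not overlap with the Sham or HF rats. In whole tissue such as this, fewer cells of a type and less RNA per cell cannot be told apart. From BAIBA rat 3 to Sham rat 3, with 5 and 618 counts, the level spanned 135-fold. The BAIBA values rested on 12, 6 and 5 counts, and the 95% exact Poisson interval of the lowest ran from 0.0979 to 0.704 CPM. These intervals cover counting error only.

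Within a group, Myl7 differed more among rats than most genes did. Its highest HFE value was 59.9 times the lowest after 0.1 CPM was added to each, and 23 of 14079 genes (0.163%) were spread as widely in that group. In the HF group the range was 23.4-fold, reached by 106 genes (0.753%). In the Sham and BAIBA groups it was 3.55-fold and 1.92-fold, where 2.17% and 14.0% of genes were as wide. The spread was thus wide among rats of the infarcted groups without BAIBA, and came from HF rat 3 and HFE rat 1.

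Myl4, the essential light chain of the same atrial myosin, was high in most of the rats that were high in Myl7. It was 20.1, 1.62 and 19.6 CPM in the Sham rats (13.8 ± 10.5, n = 3), 1.32, 1.23 and 7.41 CPM in the HF rats (3.32 ± 3.55, n = 3), 12.8, 1.18 and 0.633 CPM in the HFE rats (4.89 ± 6.90, n = 3), and 2.01, 1.28 and 1.09 CPM in the BAIBA rats (1.46 ± 0.486, n = 3). Sham rats 1 and 3, HF rat 3 and HFE rat 1 were the high rats, as for Myl7. Sham rat 2, which had 11.3 CPM of Myl7, was low in Myl4, and the Sham and BAIBA groups therefore overlapped. Across all rats Myl4 spanned 31.7-fold.

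**Figure D1:**
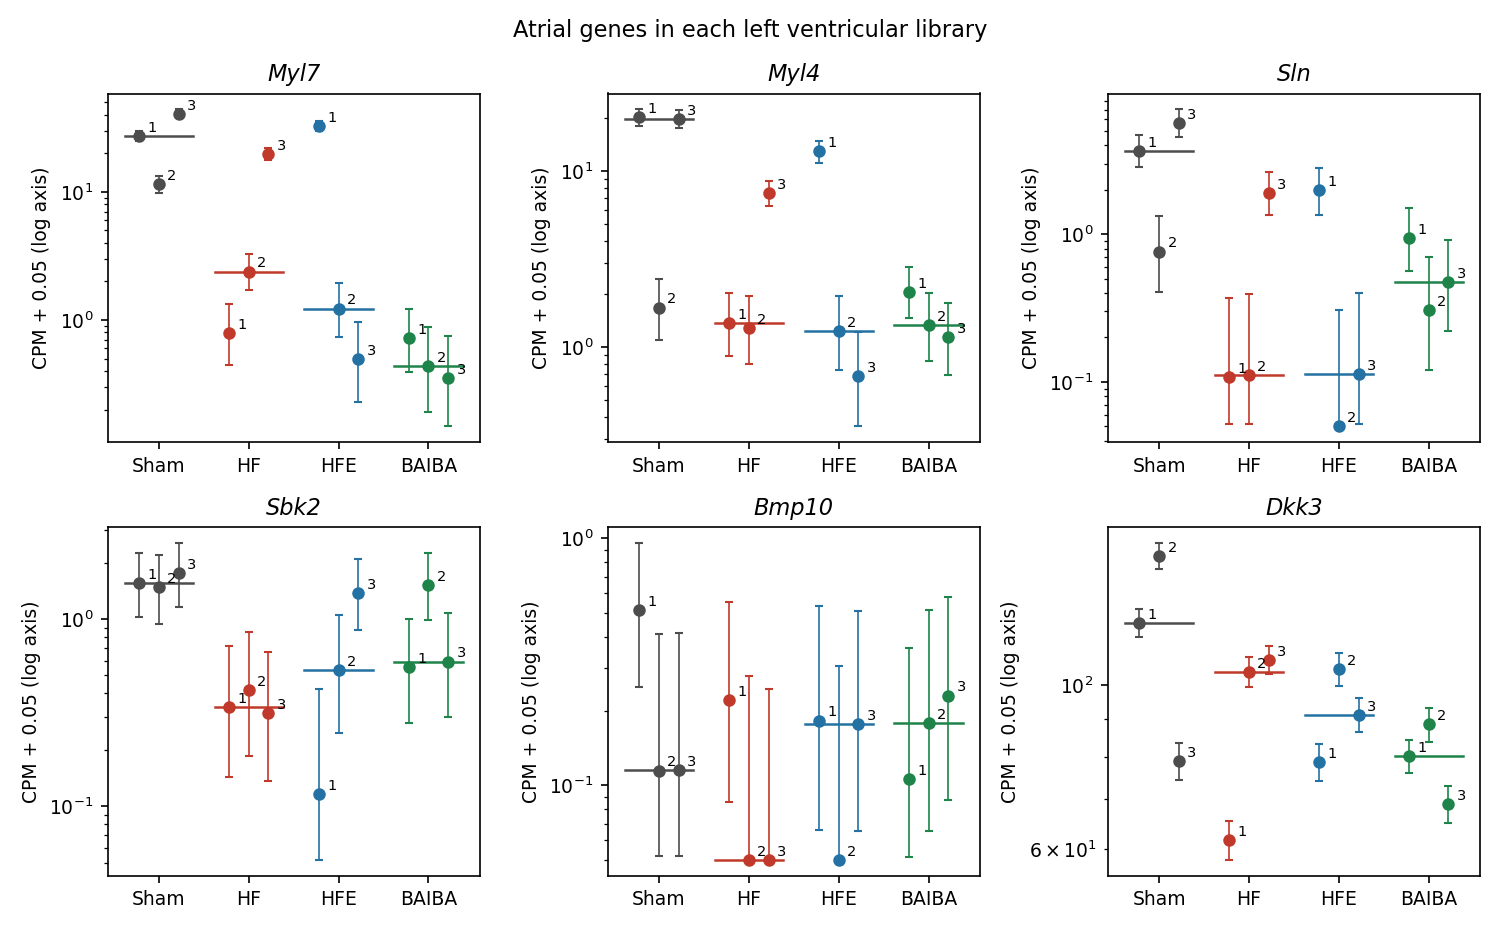
CPM + 0.05 (log axis) of each of the 6 genes in every rat, with the rat's number beside its point, the 95% exact Poisson interval of its count as a bar and the group median as a line. Sham rats 1 and 3, HF rat 3 and HFE rat 1 are the 4 highest rats for Myl7, Myl4 and Sln, while Dkk3 lies between 61.6 and 150 CPM in every rat.

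The promoters of Myl7 and Myl4 are shown because both genes moved together, and that of Sbk2 because it did not move with them. Promoter sequences from RefSeq (GRCr8), ending at the base before the annotated start of the gene, were matched for Myl7, Myl4, Sbk2 and Bmp10, and not for Sln or Dkk3. The capitals mark matches, on either strand, to CAAGTG, letters that the cardiac factor NKX2-5 can bind. In Myl4 they mark AGGTGT, letters bound by T-box factors, and a TATA box, TATAAA, read from the reverse strand. No searched motifs overlapped in these windows.
Myl7, chr14:84996625-84996874, minus strand: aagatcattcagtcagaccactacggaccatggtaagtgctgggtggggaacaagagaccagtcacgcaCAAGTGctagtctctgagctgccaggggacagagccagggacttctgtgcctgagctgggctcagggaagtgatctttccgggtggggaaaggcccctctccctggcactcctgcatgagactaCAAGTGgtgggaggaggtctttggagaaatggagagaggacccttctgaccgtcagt
Myl4, chr10:89975900-89976149, plus strand: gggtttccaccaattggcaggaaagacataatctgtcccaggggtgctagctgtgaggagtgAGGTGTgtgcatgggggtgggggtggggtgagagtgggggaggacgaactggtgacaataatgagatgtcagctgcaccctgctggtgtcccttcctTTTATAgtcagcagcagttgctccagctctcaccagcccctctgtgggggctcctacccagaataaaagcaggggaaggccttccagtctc
Sbk2, chr1:77902742-77902991, plus strand: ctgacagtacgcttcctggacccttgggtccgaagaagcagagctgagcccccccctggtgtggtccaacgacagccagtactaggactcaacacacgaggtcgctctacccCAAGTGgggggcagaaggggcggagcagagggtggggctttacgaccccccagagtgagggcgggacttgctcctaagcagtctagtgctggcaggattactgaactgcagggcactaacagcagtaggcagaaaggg

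The Myl7 window held CAAGTG at 181 and 57 bases before the start and the Sbk2 window held it at 138 bases before the start. The letters occurred in 11.7% of 27457 promoter windows of the same length. The Myl4 window held AGGTGT at 188 bases before the start and TATAAA on the reverse strand at 91 bases. At any position and on either strand, AGGTGT occurred in 11.4% and TATAAA in 13.1% of all windows. The GATA letters AGATAA were found at 248 and 71 bases before the start of Bmp10 and in 2759 of the windows. The nuclear receptor half-site AGGTCA (13.7% of windows), MEF2 (3.07%) and the CArG box (1.5%) had no match in the 4 windows. The atrial light chain windows thus shared none of the searched letters with each other, and a match is a description of letters and not of a bound site.

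Measured per length, the atrial light chains remained a small part of the light chain transcripts in every rat. Myl7 made up 0.304%, 0.110% and 0.396% of the summed FPKM of Myl7 and Myl2 in the Sham rats. The shares were 0.00790%, 0.0244% and 0.188% in the HF rats, 0.292%, 0.00974% and 0.00399% in the HFE rats, and 0.00696%, 0.00488% and 0.00311% in the BAIBA rats. Myl4 made up between 0.0146% (HFE rat 3) and 0.553% (Sham rat 1) of the summed FPKM of Myl4 and Myl3. The highest shares belonged to Sham rats 1 and 3, HF rat 3 and HFE rat 1 for both pairs, and the ventricular partner was the greater by far in every rat.

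The balance between the atrial light chains also varied among rats. The ratio of Myl7 FPKM to Myl4 FPKM was 0.525, 2.70 and 0.796 in the Sham rats and 0.218, 0.732 and 1.02 in the HF rats. It was 0.972, 0.385 and 0.270 in the HFE rats and 0.128, 0.116 and 0.107 in the BAIBA rats. The BAIBA rats lay below all other rats, but on few counts. They had 12, 6 and 5 counts of Myl7 and 36, 20 and 18 of Myl4. HF rat 1 had 13 and 23 counts of the same genes, and HFE rat 3 had 7 and 10. Whether these ratios differ beyond counting error was not tested.

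**Figure D2:**
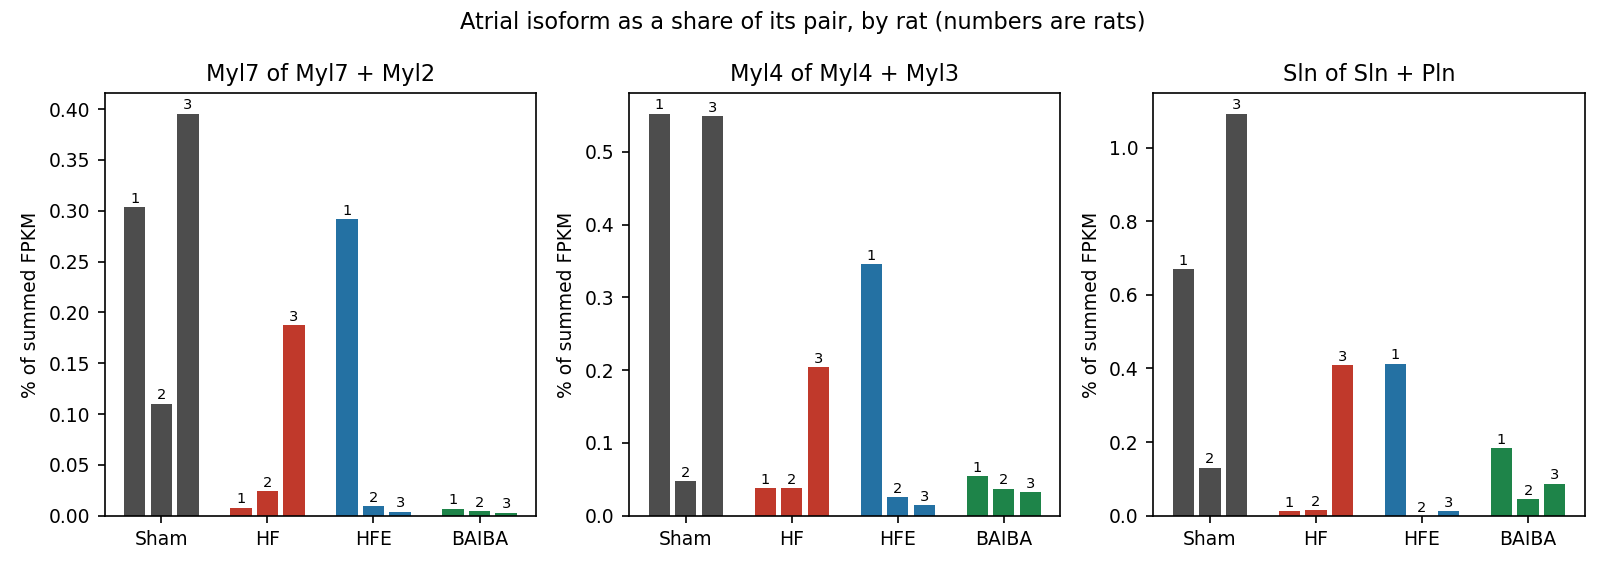
Share (%) of the summed FPKM of a gene pair taken by the atrial member, for Myl7 of Myl7 + Myl2, Myl4 of Myl4 + Myl3 and Sln of Sln + Pln, with 1 bar per rat and the rat's number above it. Every bar is at or below 1.09%, and the tallest in each panel belong to Sham rats 1 and 3, HF rat 3 and HFE rat 1.

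The myosin heavy chains that carry these light chains were tested in the same rats. The list of 18 myosin chains and kinases held 15, 15, 14 and 16 genes past the filter when HF was set against Sham, HFE against HF, BAIBA against HF and BAIBA against Sham in turn. A gene was called where edgeR's quasi-likelihood test gave an adjusted p under 0.05 and the change was more than 2-fold, that is over 1 on the log2 scale. No gene of the list was called in the first 3 comparisons and Myh7 was called lower in BAIBA against Sham. At an unadjusted p under 0.05, 1 gene was higher and 1 lower in HF against Sham, 3 were higher in HFE against HF, 2 were lower in BAIBA against HF and 1 was lower in BAIBA against Sham. DESeq2 called Myh7 lower in both BAIBA comparisons and no other gene of the list. Myh7, the slow myosin heavy chain, was 3414 ± 279 CPM in the BAIBA rats and 7716 ± 268 CPM in the Sham rats (n = 3 each), a log2 fold change of -1.17 (SE 0.10, adjusted p = 0.00864 by edgeR), and the call was lost without any one of the 3 Sham rats and with all 12 rats in one fit (adjusted p = 0.302 by edgeR). Myh6, the heavy chain of atrial myosin and of the adult rat ventricle, had a log2 fold change of -0.62 (SE 0.12) in HF against Sham without overlap, with an adjusted p of 0.709 by edgeR and 0.000721 by DESeq2, and its change stayed under 2-fold. Myl2 and Myl3 did not pass in any comparison, with log2 fold changes between -0.12 and 0.30.

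Sln encodes sarcolipin. Its counts were 63, 11 and 86 in the Sham rats, 1, 1 and 35 in the HF rats, 29, 0 and 1 in the HFE rats, and 16, 4 and 7 in the BAIBA rats. As CPM these were 3.63, 0.713 and 5.65 in Sham, 0.0573, 0.0613 and 1.85 in HF, 1.93, 0 and 0.0633 in HFE, and 0.892, 0.257 and 0.422 in BAIBA. Sham rats 1 and 3, HF rat 3 and HFE rat 1 were again the 4 highest rats, and the groups overlapped in each comparison. Unlike Myl7, Sln was higher in each BAIBA rat than in the low HF and HFE rats, where 0 or 1 count was found. The 0 of HFE rat 2 allowed up to 0.255 CPM at the upper end of its 95% exact Poisson interval.

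The Myl7 to Sln ratio by FPKM was between 1.04 and 2.42 in the 3 Sham rats, HF rat 3 and HFE rat 1, and between 0.103 and 0.217 in the BAIBA rats. It was not computed for the 4 rats with fewer than 4 Sln counts. Sln made up at most 1.09% of the summed FPKM of Sln and Pln, the ventricular inhibitor of the same pump, and that value was in Sham rat 3. Of the calcium pump and its regulators, 7 genes passed the filter and edgeR and DESeq2 called none in any comparison. At an unadjusted p under 0.05, edgeR had 1 higher and 1 lower in HF against Sham, 1 higher in HFE against HF, none in BAIBA against HF and 1 higher in BAIBA against Sham. Atp2a2, the calcium pump itself, was between 7372 and 9553.6 CPM in all rats, and Pln between 3154 and 4222 CPM.

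Sbk2, a kinase gene of striated muscle, gave another order of rats. Its counts were 26, 22 and 26 in the Sham rats, 5, 6 and 5 in the HF rats, 1, 7 and 21 in the HFE rats, and 9, 23 and 9 in the BAIBA rats. In CPM it was 1.50, 1.43 and 1.71 in Sham (1.54 ± 0.146, n = 3), 0.287, 0.368 and 0.265 in HF (0.307 ± 0.0544, n = 3), 0.0666, 0.485 and 1.33 in HFE (0.627 ± 0.643, n = 3), and 0.502, 1.48 and 0.543 in BAIBA (0.840 ± 0.551, n = 3). The HF rats did not overlap with the Sham rats or the BAIBA rats and were below both. HFE rat 1 and HF rat 3, high in Myl7, were low in Sbk2, and BAIBA rat 2 was high in Sbk2 and low in Myl7.

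Bmp10, an atrial growth factor, was close to undetected. It had 8, 1 and 1 counts in the Sham rats, 3, 0 and 0 in the HF rats, 2, 0 and 2 in the HFE rats, and 1, 2 and 3 in the BAIBA rats, or 23 in all. The groups overlapped in each comparison, and a difference was not detectable at this depth. Bmp10 did not pass the filter in any comparison. Sham rat 1, with 8 counts, reached 0.462 CPM (95% exact Poisson interval 0.199 to 0.909 CPM). Of its receptors, relatives and targets, 14 of 17 genes passed the filter, and neither edgeR nor DESeq2 called one in any comparison. At an unadjusted p under 0.05, edgeR had 1, 0, 1 and 2 higher and 0 lower in the same order of comparisons. Acvrl1, the endothelial receptor that binds BMP10, was between 53.7 and 81.7 CPM.

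Dkk3, a secreted member of the Dickkopf family, was the most abundant of the 6 genes. It was 121, 150 and 78.8 CPM in the Sham rats (117 ± 35.6, n = 3), 61.6, 104 and 108 CPM in the HF rats (91.3 ± 25.8, n = 3), 78.6, 105 and 91.0 CPM in the HFE rats (91.5 ± 13.2, n = 3), and 80.1, 88.4 and 68.9 CPM in the BAIBA rats (79.1 ± 9.80, n = 3). The groups overlapped in each comparison, and the 12 rats spanned 2.43-fold. No atrial tissue was measured, so how its level here compares with that of an atrium is not known. The 15 Wnt antagonists and co-receptors set beside it had 10, 10, 10 and 11 genes past the filter, with none called by edgeR or DESeq2. At an unadjusted p under 0.05, edgeR had 1 lower in HF against Sham, 2 higher in BAIBA against HF and none in the other 2 comparisons. Dkk1, its relative that blocks Wnt receptors, had no counts in any rat.

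The likeness among the 6 genes was measured over the 12 rats by Pearson's r of log2 CPM, with a prior count of 2, as a description without a p. Myl4 was the gene most like Myl7 among 12956 genes with a mean of at least 1 CPM (r = 0.889), and remained at 0.887 with group means removed. The 5th and 95th percentiles of r with Myl7 over these genes were -0.49 and 0.49, and 11 genes were above 0.8. Sln had r = 0.797 with Myl7 and 0.908 with Myl4. Dkk3 (0.399), Bmp10 (0.03) and Sbk2 (-0.03) were not among the genes most like Myl7, so the 6 genes did not form 1 pattern. With group means removed, r with Myl7 was 0.917 for Sln, -0.01 for Dkk3, -0.11 for Bmp10 and -0.69 for Sbk2. The points share each rat's library and depth, and 2 of the 5 high Myl7 rats are in infarcted groups.

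Genes with a mean below 1 CPM, Mybphl among them, were not ranked here, and the r of Mybphl is given further on. The other genes most like Myl7 were Cap2 (0.866), Isca2 (0.864), Oxld1 (0.852), Gid4 (0.846), Cgnl1 (0.845), Tmem253 (0.831), Zbtb47 (0.828), Synpo2l (0.827) and LOC100912538 (0.820). Sln was most like Myl4 (0.908), Zfp641 (0.902), Ankrd40 (0.837), Ncam1 (0.829) and Klc2 (0.827), and Myl4 was most like Sln, Myl7, Klhdc10 (0.873), Isca2 (0.828) and AABR07035818.1 (0.818). Sbk2 was most like Patl1 (0.899), Cul3 (0.875), Lmod1 (0.875), Dlgap1 (0.864) and AABR07053516.1 (0.854). These are the first of 18 genes above 0.8, and Sbk2 had only 1 to 26 counts per rat, so its r values rest on few reads. Dkk3 was most like Lhfpl2 (0.892), Lgals9 (0.882), Pgm5 (0.877), Art3 (0.861) and Sipa1l2 (0.861). Bmp10, with 23 counts in all, is left out of this comparison because its r rests on single reads. Sbk2 had r = 0.836 with Myh6, the fast heavy chain, and 0.786 with Sbk3, its paralog and neighbour in the RefSeq annotation of GRCr8. Sbk3 was also low, between 0 and 1.05 CPM. Whether the reads of Sbk2 and Sbk3 were fully separable was not tested.

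**Figure D3:**
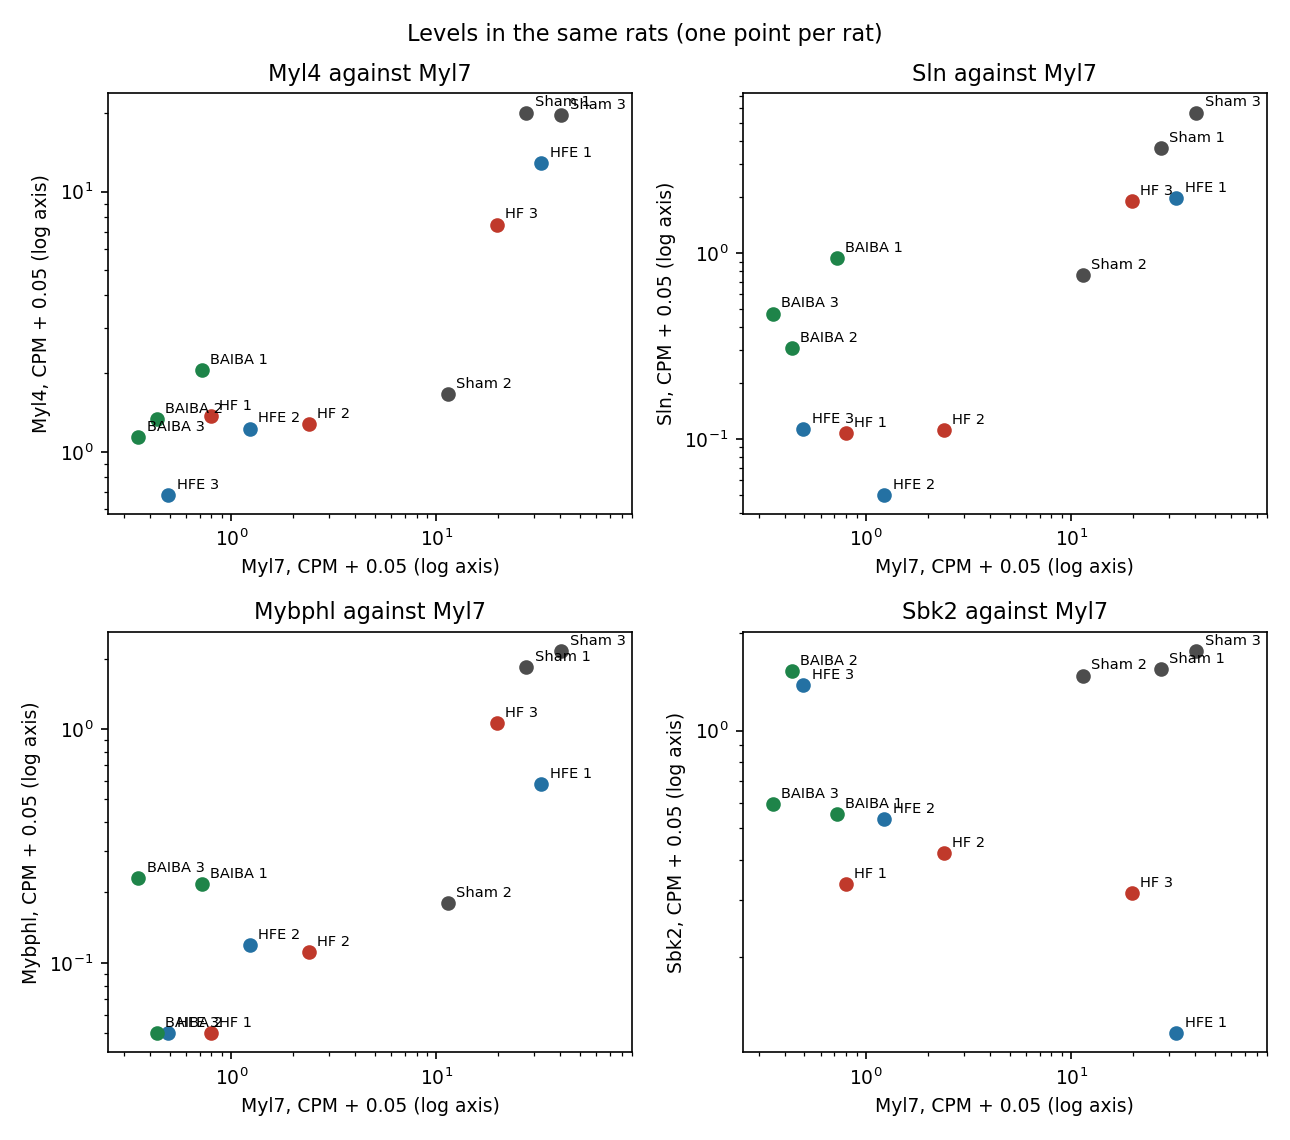
Myl4, Sln, Mybphl and Sbk2 against Myl7 in each rat, all as CPM + 0.05 on log axes, with 1 labelled point per rat. Myl4, Sln and Mybphl rise with Myl7 (r = 0.889, 0.797 and 0.846 on log2 CPM), while Sbk2 does not (r = -0.03).

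Other genes of the atria were compared in the same rats. Mybphl, a myosin binding protein enriched in atrial muscle, had 31, 2 and 32 counts in the Sham rats, 0, 1 and 19 in the HF rats, 8, 1 and 0 in the HFE rats, and 3, 0 and 3 in the BAIBA rats. Its 4 highest rats were Sham rats 1 and 3, HF rat 3 and HFE rat 1, the same rats that were highest in Myl4 and Sln, and its r was 0.942 with Myl4 and 0.922 with Sln. Nppa, the atrial natriuretic peptide, was 133, 16.9 and 375 CPM in Sham, 67.7, 454 and 509 CPM in HF, 148, 128 and 27.5 CPM in HFE, and 212, 10.4 and 11.6 CPM in BAIBA (r = 0.539 with Myl7). HF rat 2 and BAIBA rat 1 were high in Nppa and low in Myl7, so Nppa followed Myl7 less closely by this value than Myl4 did.

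Among 16 other atrial genes, 14, 13, 13 and 14 passed the filter in the same order of comparisons, and neither edgeR nor DESeq2 called one. At an unadjusted p under 0.05, edgeR had 0 higher and 2 lower in HF against Sham, 2 and 0 in HFE against HF, 1 and 0 in BAIBA against HF, and 2 and 2 in BAIBA against Sham. Their median log2 fold changes were -0.19, 0.04, 0.06 and -0.19. Kcnj3, a subunit of the atrial acetylcholine-activated potassium channel, had a log2 fold change of -0.67 (SE 0.21) in HF against Sham, with an adjusted p of 0.805 by edgeR. Other genes of the list were higher or lower without overlap. Over all genes tested, 6.52% were higher without overlap in BAIBA against Sham, 6.01% in BAIBA against HF and 8.26% in HFE against HF. Nr2f2 had 0.61 in BAIBA against Sham (SE 0.14, adjusted p = 0.386 by edgeR and 0.166 by DESeq2). Nr2f1 had 0.85 in BAIBA against HF (SE 0.25, adjusted p = 0.851 by edgeR). Cacna1h had 0.84 in HFE against HF (SE 0.31, adjusted p = 0.635 by edgeR). Nr2f1 in HFE against HF (0.55) and Stard10 (0.35) and Cacna1d (0.32) in BAIBA against HF were also higher without overlap. Lower without overlap were Cacna1d in HF against Sham (-0.73), Kcna5 in HFE against HF (-0.56) and Tbx5 in BAIBA against Sham (-0.31). Of all genes tested, 6.55%, 6.16% and 6.17% were lower without overlap in these comparisons in turn. Pam, the enzyme that amidates peptide hormones and a major atrial membrane protein, was 886 ± 17.9 CPM in BAIBA and 1171 ± 87.7 CPM in Sham (log2 fold change -0.40, SE 0.10, adjusted p = 0.386 by edgeR and 0.0132 by DESeq2, n = 3 each), and its groups did not overlap.

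**Figure D4:**
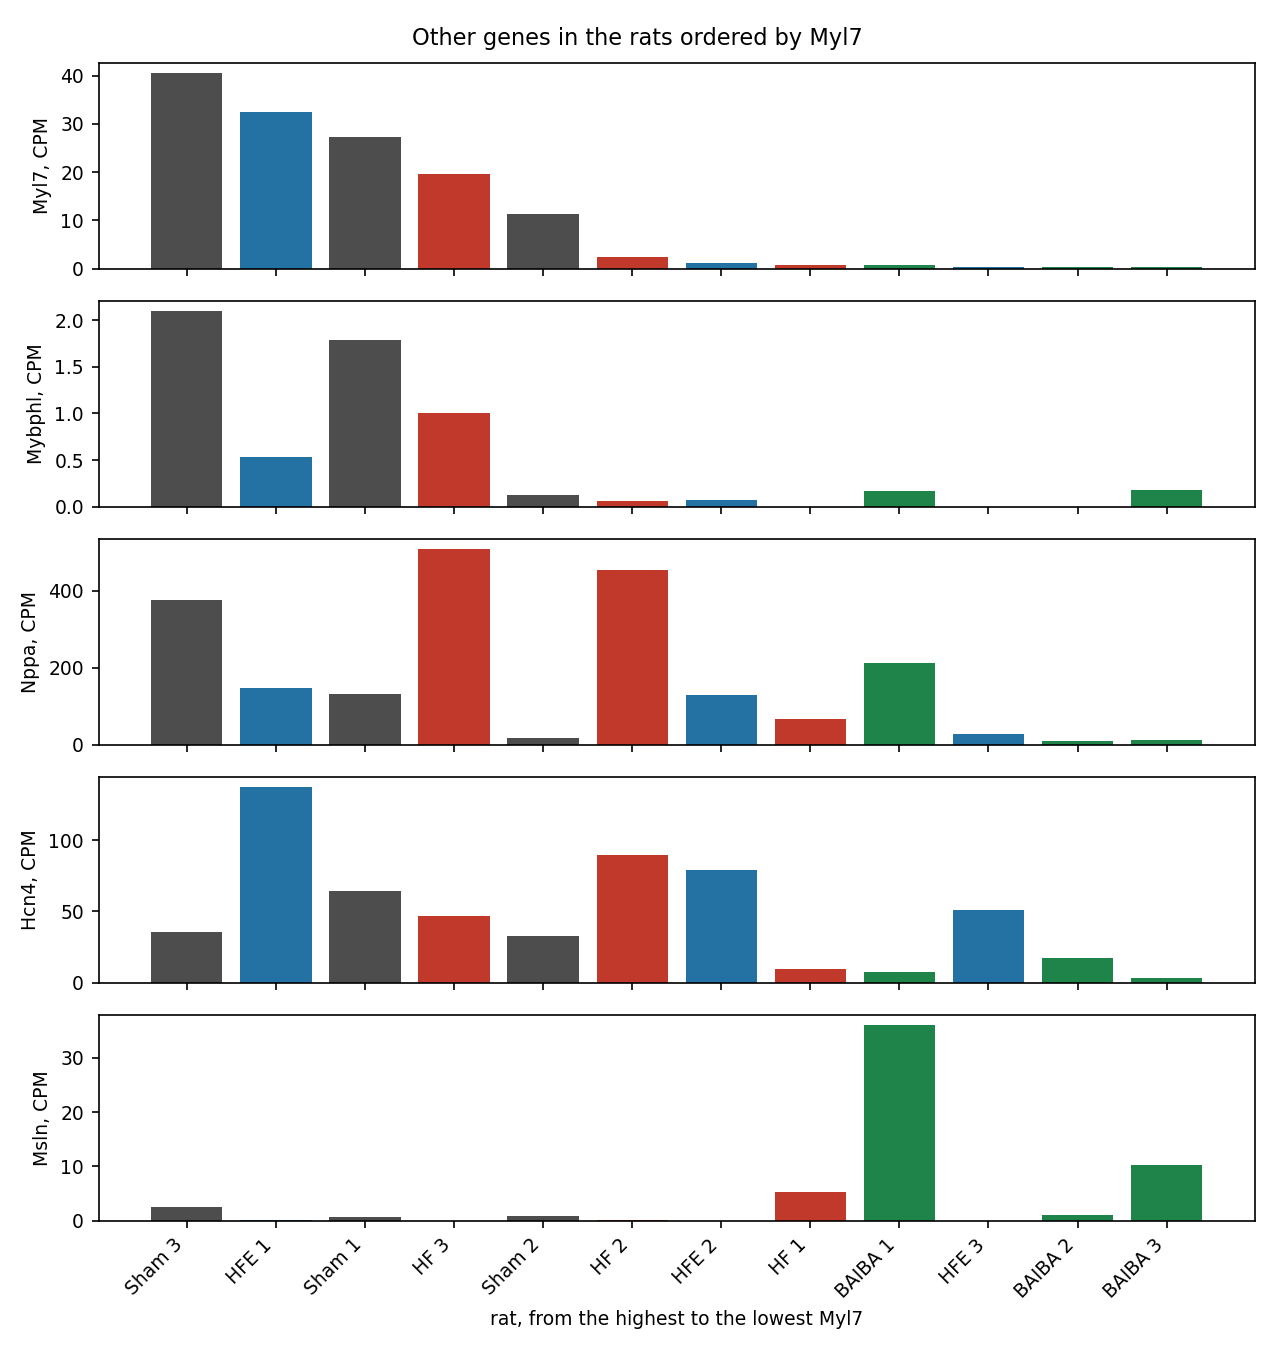
CPM of Myl7, Mybphl, Nppa, Hcn4 and Msln in the 12 rats, ordered from the highest to the lowest Myl7, with bars coloured by group (Sham grey, HF red, HFE blue, BAIBA green). Mybphl is at or above 0.533 CPM in 4 of the 5 rats above 5 CPM of Myl7, whereas Msln reaches its highest level, 36.1 CPM, in BAIBA rat 1.

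Markers of other cells were set beside Myl7. For the mesothelium, 7 of 8 listed markers were in the table, and their summed level was 26.8 to 33.6 CPM in Sham, 29.7 to 34.9 in HF, 26.1 to 33.2 in HFE and 30.9 to 106 in BAIBA. Wt1, a part of this sum, lay between 14.5 and 23.6 CPM in every rat. Upk3b, Upk1b, Krt19 and Lrrn4 were 2.12, 2.52, 1.26 and 2.24 CPM in HF rat 1, and at most 0.123 CPM in HF rats 2 and 3. Msln had no counts in HF rat 3, HFE rat 2 and HFE rat 3. BAIBA rat 2, with 1.03 CPM of Msln, had a Myl7 level between those of BAIBA rats 1 and 3. The Myl7 log2 fold change of BAIBA was -4.44 against HF and -6.24 against Sham without BAIBA rat 1, and -3.82 and -5.61 without BAIBA rat 3. BAIBA rat 2 by itself, set against HF rats 2 and 3, gave -4.82, and set against the Sham rats, -6.06. These values come from 1 rat with 6 counts, with HF rat 1 and BAIBA rats 1 and 3 left out, an alternative chosen after seeing the data. The 7 skeletal muscle markers in the table summed to between 7.84 and 20.7 CPM, with the highest sum in HF rat 3, one of the high Myl7 rats. The next highest sums were in HF rat 1 (14.3 CPM) and BAIBA rat 1 (13.7 CPM), both low in Myl7. The other high Myl7 rats lay between 9.92 and 11.1 CPM. The part of skeletal muscle in the result was not tested. Hcn4, the pacemaker channel, was 64.3, 32.8 and 35.6 CPM in Sham, 9.29, 89.8 and 46.7 in HF, 137, 79.3 and 51.0 in HFE, and 7.58, 17.3 and 3.14 in BAIBA (r = 0.591 with Myl7). Its list of 10 sinus node and conduction genes did not share this pattern. The 6 past the filter had median log2 fold changes of 0.22 in BAIBA against HF and 0.46 in BAIBA against Sham. At an unadjusted p under 0.05, edgeR had 1 higher and 0 lower in the former, and 2 higher and 1 lower in the latter. Neither edgeR nor DESeq2 called a gene of this list in any comparison.

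When HF was compared with Sham, 5 of the 6 genes passed the filter. Their log2 fold changes were -1.79 (SE 1.15) for Myl7, -2.05 (SE 1.13) for Myl4, -2.30 (SE 1.25) for Sln, -2.31 (SE 0.36) for Sbk2 and -0.35 (SE 0.30) for Dkk3. Sbk2 was the 1 gene of the 6 whose groups did not overlap, and it was lower in HF, where 6.55% of the genes tested were lower and 5.25% higher without overlap. None of the 6 was called by edgeR (0% of genes tested) or by DESeq2 (0.154%). The size depended on single HF rats. Without HF rat 3 the log2 fold changes were -4.11 for Myl7, -3.43 for Myl4 and -5.64 for Sln, and without HF rat 1 they were -1.25, -1.66 and -1.76.

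When HFE was compared with HF, Myl7, Myl4 and Dkk3 passed the filter. The log2 fold changes were 0.57 (SE 1.79), 0.55 (SE 1.31) and 0.00 (SE 0.22). The groups overlapped for all 6 genes, where 8.26% of the genes tested were higher and 6.16% lower without overlap. None was called by edgeR (0%) or DESeq2 (0.119%). Without HFE rat 1 the values turned to -3.23 for Myl7 and -1.87 for Myl4, without HF rat 3 they were 2.88 and 1.93, and without HF rat 1 they were 0.03 and 0.17, so the direction rested on single rats.

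When BAIBA was compared with HF, Myl7, Myl4 and Dkk3 passed the filter. The log2 fold changes were -4.04 (SE 1.33), -1.19 (SE 0.74) and -0.21 (SE 0.22). Myl7 was lower in all 3 BAIBA rats than in any HF rat, as were 5.37% of the genes tested, and Sbk2, which did not pass the filter, was higher in all 3 (6.01% of the genes tested were higher without overlap). edgeR called none of the 6 (0%) and DESeq2 called Myl7 (0.161%). Without HF rat 3 the log2 fold change was -1.74 for Myl7 and 0.20 for Myl4, and without HF rat 1 it was -4.57 and -1.56. The Myl4 value was -1.48 without BAIBA rat 1 and -1.01 without BAIBA rat 3.

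When BAIBA was compared with Sham, 5 of the 6 genes passed the filter. The log2 fold changes were -5.82 (SE 0.62) for Myl7, -3.22 (SE 0.94) for Myl4, -2.63 (SE 0.78) for Sln, -0.88 (SE 0.46) for Sbk2 and -0.55 (SE 0.23) for Dkk3. Myl7 was the 1 gene without overlap and was lower, as were 6.17% of the genes tested (6.52% were higher). edgeR called none of the 6 (0.0402% of the genes tested) and DESeq2 called Myl7 and Sln (0.436%). The comparison shares its BAIBA rats with that against HF and its Sham rats with that of HF, so the comparisons are not independent. Without BAIBA rat 1 the log2 fold changes of Myl4 and Sln were -3.53 and -3.26, and without BAIBA rat 3 they were -3.06 and -2.50. That of Sbk2 was -1.55 without BAIBA rat 2, the highest of the 3 in Sbk2.

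**Figure D5:**
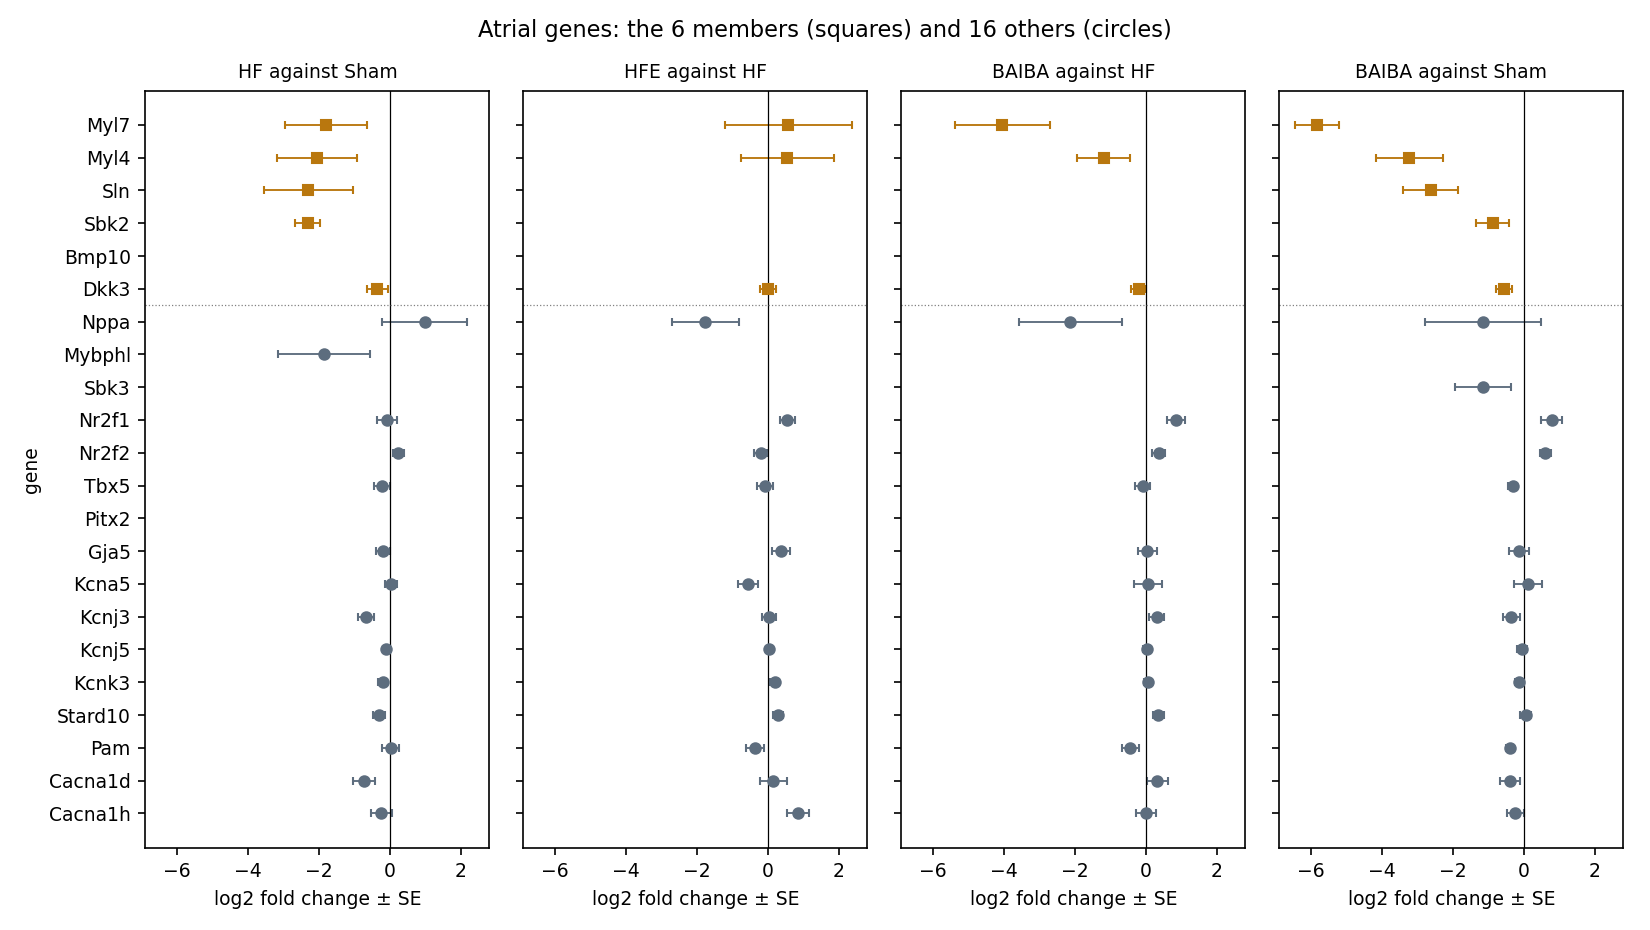
Log2 fold change ± SE of the 6 genes (squares) and 16 other atrial genes (circles) in the 4 comparisons, where a gene without a symbol in a panel was below the filter there. Myl7, Myl4 and Sln lie below 0 in BAIBA against Sham, with Myl7 at -5.82, while Dkk3 stays between -0.55 and 0.00 in the 4 panels.

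Of the other listed genes, 113 were tested in BAIBA against Sham, where Myh7 was the 1 called by edgeR and 13 were higher and 10 lower at an unadjusted p under 0.05. DESeq2 also called Npr3, Irx3 and Irx5 lower and Hbb higher there. Npr3, the clearance receptor of natriuretic peptides, was 4.89 ± 1.13 CPM in BAIBA and 15.7 ± 2.20 CPM in Sham (n = 3 each), a log2 fold change of -1.68 (SE 0.20, adjusted p = 0.0513 by edgeR), and it had r = 0.747 with Myl7. Irx5, a ventricular transcription factor, had a log2 fold change of -2.08 (SE 0.34, adjusted p = 0.138 by edgeR). In the other 3 comparisons the lists held 110, 108 and 112 tested genes, with none called by edgeR. At an unadjusted p under 0.05, 4 were higher and 11 lower, 9 higher and 3 lower, and 6 higher and 7 lower in HF against Sham, in HFE against HF and in the BAIBA rats against HF. Over all genes the share at that p was 6%, 7.62%, 5.55% and, in BAIBA against Sham, 7.41%. DESeq2 called 0, 0 and 1 (Myh7).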

How the data were processed

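RNA of the left ventricle of 12 rats was sequenced. The authors filtered reads, aligned them with HISAT2, assembled unannotated genes with StringTie and obtained counts per gene with featureCounts. The deposited counts are raw whole numbers, and the deposited FPKM values were made by the authors from these counts and gene lengths. The submitters' processing notes name mm9, a mouse build, while the table holds rat genes, so no coordinates were taken from the files. Whether strand was used in counting is not given in the sources used here.

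Counts were analysed with edgeR 4.0.16 in R 4.3.3. Every comparison was fitted on its own 6 rats with TMM factors, the filterByExpr filter and robust quasi-likelihood tests, and p-values were Benjamini-Hochberg adjusted over all genes tested. An SE is the fold change (log2) over the root of F. For CPM, TMM factors were computed over 12 rats together. Alternatives were DESeq2 1.42.0, RLE normalization, library size only, no filter beyond 1 count, all 12 rats in one fit, a block for the replicate number, omission of single rats, and limma 3.58.1 on log2(FPKM + 0.1) and log2(FPKM + 1). The edgeR, DESeq2 and limma fits were tested on simulated data. FPKM ratios with 3 or fewer counts in the denominator were not computed.

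The 6 genes and the lists (144 symbols, 135 in the table) were chosen with earlier results of these data known. Named were the 6 genes, listed genes called in a comparison, up to 4 genes with the highest mean level in each list, Nppa, Myl2, Myl3, Atp2a2, Pln, Myh6 and Myh7, the 10 genes most like Myl7 and the 5 most like each of the others except Bmp10, whose 23 counts gave r values resting on single reads. Mybphl, Sbk3, Kcnj3, Nr2f1, Nr2f2, Cacna1h, Cacna1d, Kcna5, Stard10, Tbx5, Dkk1, Irx3, Irx5, Upk1b, Krt19 and Lrrn4 were named after their values were seen. Same-numbered rats are different animals.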

Additional observations from a re-analysis of the deposited data

How the results depend on the processing

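With 3 rats in a group and 5 to 12 counts of Myl7 in the BAIBA rats, fold changes against that group and the levels of Sln, Sbk2 and Bmp10 are limited by depth and by the number of rats. Of 805 values under other settings, 31 moved. Of these 805, 671 were of single genes, each value being 1 gene in 1 comparison under 1 setting. Among them 4 values lost a call and 10 gained one, and the 4 losses were all of Myh7 in BAIBA against Sham. The sign turned in 33 values, of which 7 were of tested genes, and none of these 7 passed the threshold. Hcn4 in HF against Sham (0.13) was -0.17 with the replicate block, -0.32 by limma on log2(FPKM + 0.1), -0.22 on log2(FPKM + 1) and -0.67 to 0.62 with single rats left out. Leaving out single rats moved Myh7 in HFE against HF between -0.017 and 0.50 and Nppa in BAIBA against Sham between -3.98 and 0.069. For other listed genes called in BAIBA against HF (0), the count was 1 with DESeq2, 1 with all 12 rats in one fit and 1 without HF rat 1 and BAIBA rats 1 and 3, an alternative chosen after seeing the data. That last call, of Nppa, set 1 BAIBA rat (rat 2, 10.4 CPM) against 2 HF rats, whose spread the lone rat is assumed to share, while BAIBA rat 1 had 212 CPM. For BAIBA against Sham (1), it was 5 with DESeq2, 2 with library size only, 2 with no filter beyond 1 count, 0 with all 12 rats in one fit and 0 to 3 with single rats left out (0 without any one of the Sham rats, 3 without BAIBA rat 2). The numbers of the rats did not pair them, since correlations of same-numbered rats lay between -0.08 and 0.12, and with the replicate number as a block the count was 2 in BAIBA against Sham and 0 in the other 3 comparisons. The r of Myl7 with Myl4 was 0.862 to 0.950 with single rats left out, highest without Sham rat 2. For Myl7, limma on log2(FPKM + 1) gave -2.02 in HF against Sham, 0.03 in HFE against HF, -1.34 in BAIBA against HF and -3.36 in BAIBA against Sham. The causes of these differences were not tested.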
